A study of Mus musculus with 57 samples.

Results

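The clustered histone genes of the mouse were described in bone marrow: 70 of the 56332 genes in the deposited table, chosen as every Ensembl gene whose symbol starts with Hist1h, Hist2h, Hist3h or Hist4h. They comprised 6 linker histone H1 genes, 20 H2A, 19 H2B, 12 H3 and 13 H4 genes, 67 of them annotated as protein coding and 3 as pseudogenes. On GRCm38 (mm10), 56 lie on chromosome 13 (Hist1), 10 on chromosome 3 (Hist2), 3 on chromosome 11 (Hist3) and 1 on chromosome 6 (Hist4h4). The mice were C57BL/6 males, 8 weeks old at the start, given an antibody against PAPP-A (aPAPPA) or a control antibody for 4 weeks. PAPP-A is a secreted protease that cleaves insulin-like growth factor binding proteins. The 57 libraries came from mesenchymal stromal cells (MSC, 4 aPAPPA and 6 control), haematopoietic stem cells (HSC, 4 and 3), common lymphoid progenitors (CLP, 4 and 4), granulocyte-monocyte progenitors (GMP, 4 and 4), megakaryocyte-erythroid progenitors (MEP, 4 and 4), Myeloid cells (6 and 6) and unsorted whole bone marrow (WBM, 4 control). Each library was made from a pool of mice, pools are the replicates, and how many mice a pool held is not stated.

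Replication-dependent histone genes encode the bulk of the core histones H2A, H2B, H3 and H4, which form the nucleosome, and of H1, which binds the linker DNA between nucleosomes. Their transcripts are made mainly in S phase and are the only animal mRNAs known to end in a conserved stem-loop instead of a poly(A) tail; stem-loop binding protein (Slbp) binds that structure and Npat activates the genes. Some of them also give longer polyadenylated transcripts, which have been described in cells that have left the cycle, so the way RNA is selected for a library bears on which histone transcripts are counted. The labels name a strand-specific kit and total RNA but do not say whether poly(A) RNA was selected or ribosomal RNA depleted.

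The stem-loop is shown first because it divides the members. The pattern GGNNCTTNTNAGNGCC was searched on the transcript strand of the GENCODE M21 gene models and was found in 44 of the 70 members, against 38 of 55380 other genes (0.0686%). Of these, 22 models end within 100 bases of the stem-loop, a limit set here (3 to 74 bases after it), and 22 run on for 108 to 4884 bases. No match was found in the other 26 models, of which 19 are shorter than 500 bases. The lines below give the stem-loop, in capitals, with the flanking bases of the model, 5′ to 3′, for genes whose values are followed in the results.
Hist1h2ap: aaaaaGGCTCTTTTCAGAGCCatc
Hist2h2aa1: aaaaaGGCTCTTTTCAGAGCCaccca
Hist1h4i: ttaaaGGCCCTTTTTAGGGCCaccac
Hist1h1c: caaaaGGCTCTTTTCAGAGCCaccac
Hist3h2a: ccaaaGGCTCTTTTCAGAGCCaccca
Hist4h4: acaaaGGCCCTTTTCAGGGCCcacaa
The model of Hist1h2ap (chr13:21833026-21833507, minus strand) ends 3 bases after the structure and that of Hist2h2aa1 (chr3:96245497-96246082, plus) 35 bases after it. The models of Hist1h4i (chr13:22040636-22041362, minus), Hist1h1c (chr13:23738808-23740367, plus), Hist3h2a (chr11:58954685-58956830, plus) and Hist4h4 (chr6:136801553-136804415, minus) run on for 330, 840, 1643 and 2445 bases. The sequence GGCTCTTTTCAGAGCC was the most frequent form, with 26 members, followed by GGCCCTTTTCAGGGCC with 7 and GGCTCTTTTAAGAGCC with 6.

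A list of 7 members with described polyadenylated transcripts was followed separately: Hist1h1c, Hist1h2bc, Hist1h2be, Hist2h2be, Hist3h2a, Hist3h2ba and Hist4h4. In 5 of them the model runs past a stem-loop by more than 100 bases, and in Hist1h2bc (chr13:23684199-23692908, plus) and Hist2h2be (chr3:96221119-96223738, plus) no match was found. The other 63 members are called the other members here. The list was chosen with earlier results of these data known, so its contrast with the other members is a description. Promoters were read from RefSeq on GRCm38.p6 for 62 members (63 windows of 300 bases around the start, 250 before and 50 after). CCAAT, on either strand, was in 54 windows (85.7%, against 37.4% of all 32851 promoter windows), and TATAA, on either strand, was in 50 (79.4%, against 24.9%). In the deeper Myeloid batch Hist1h3h and Hist1h1b were called higher and Hist1h1c lower. Hist1h3h was at or near 0 in the other Myeloid batch, so its direction was fixed by the low-count filter. The 150 bases before the start of each of them are given, with CCAAT and TATAA on either strand in capitals.
Hist1h3h: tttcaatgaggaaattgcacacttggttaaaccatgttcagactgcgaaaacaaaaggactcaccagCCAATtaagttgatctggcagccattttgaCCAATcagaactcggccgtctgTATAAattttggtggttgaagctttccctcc
Hist1h1b: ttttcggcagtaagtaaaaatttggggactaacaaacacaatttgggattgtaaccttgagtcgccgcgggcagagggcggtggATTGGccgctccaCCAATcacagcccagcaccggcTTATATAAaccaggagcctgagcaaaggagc
Hist1h1c: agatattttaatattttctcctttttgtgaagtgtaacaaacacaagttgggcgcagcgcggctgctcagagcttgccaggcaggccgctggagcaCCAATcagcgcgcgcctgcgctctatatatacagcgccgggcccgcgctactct
These stand at chr13:21717478-21717627 (plus), chr13:21780626-21780775 (minus) and chr13:23738657-23738806 (plus). In Hist1h1b a match on each strand overlaps in TTATATAA. A match describes the letters in the window and shows no binding.

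Many members are near copies, and Salmon, which produced the counts, divides reads that fit several transcripts. The median member had 41.3% of its 31-base words to itself among all GENCODE transcripts, and 42 of 70 had under 50%. The H1 genes were the most distinct (median 96.3%) and the H2A genes the least (19.15%). Hist1h2ap had 6.6% of its words to itself and shared 93.4% with Hist1h2ao (chr13:21810465-21810944, plus), so the split between those 2 genes is uncertain. Hist1h1c (88.6%), Hist1h2bc (67.4%), Hist2h2be (97.2%), Hist3h2a (67.9%) and Hist1h4i (64.7%) are better separated. Hist2h2aa2 and Hist2h3c1 had no word of their own. The models of Hist1h2be and Hist1h1e overlap on the same strand.

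Library totals ran from 107412 to 125537299 counts. Batch A held 4 MSC and 3 WBM libraries and every library of the HSC, CLP, GMP and MEP sorts; batch B held 6 Myeloid libraries; batch C held 6 Myeloid, 6 MSC and 1 WBM library. What the batch letters stand for is not given, and the batches hold different mouse pools, so batch and pool cannot be told apart within a population. Myeloid totals were 87015375 to 125537299 counts in batch B and 14760577 to 18180103 in batch C. Under 1000000 counts were HSC aPAPPA pool 6 (107412), MSC control pool 7 (321860), MSC aPAPPA pool 8 (499300) and CLP control pool 5 (587316), with 85, 47, 168 and 815 counts on the members. Each sorted population had its own markers, but the CLP libraries also held GMP markers (3361 to 10430 CPM summed, against 2585 to 8651 CPM for the CLP markers). MSC control pool 7 and MSC aPAPPA pool 8 held 127200 and 31640 CPM of CLP markers. In bulk RNA, fewer expressing cells and less RNA per cell cannot be told apart. Values are CPM, counts scaled to a fixed total with TMM (trimmed mean of M-values) library sizes.

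Of the 70 members, Hist1h2ba was at 0 in all 57 libraries, and Hist1h1t, Hist1h2aa, Hist1h2al and Hist3h2bb-ps stayed under 1 CPM in every library. Hist1h1t, Hist1h2aa and Hist1h2ba, which are known from the testis, reached at most 0.631 CPM summed. The mean CPM of a control population reached 1 for 64 members, 10 for 26 and 100 for only Hist1h2ap and Hist1h1c. Between 9 and 68 members had a count in a library. One gene therefore set most of the average level: per kilobase of exon, averaged over the 7 control population means, Hist1h2ap (H2A) had 1537 CPM per kb, 72.1% of the total of all members. In MSC and in the batch C libraries it made up a smaller part. Its share also rests on how Salmon divided reads between it and Hist1h2ao.

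Behind Hist1h2ap, per kilobase, came the linker histone Hist1h1c with 133.6 CPM per kb and the H2B gene Hist1h2bc with 42.5. The H2A copies Hist2h2aa1 and Hist2h2aa2 had 33.6 and 29.9 CPM per kb, and the H4 gene Hist1h4i had 30.7. The next H2B genes, Hist1h2bg and Hist1h2bb, had 20.9 and 12.1 CPM per kb, and the next H4 genes, Hist1h4m and Hist1h4n, 13.0 and 12.3. The H1 genes Hist1h1b and Hist1h1a had 8.57 and 8.53, and the highest H3 genes, Hist1h3c, Hist1h3i and Hist2h3b, had 7.39, 6.42 and 6.16 CPM per kb. H3 genes were thus the lowest family at the top of the ranking. Among control population means, 47 members were highest in Myeloid cells and 55 were lowest in MSC.

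**Figure D1:**
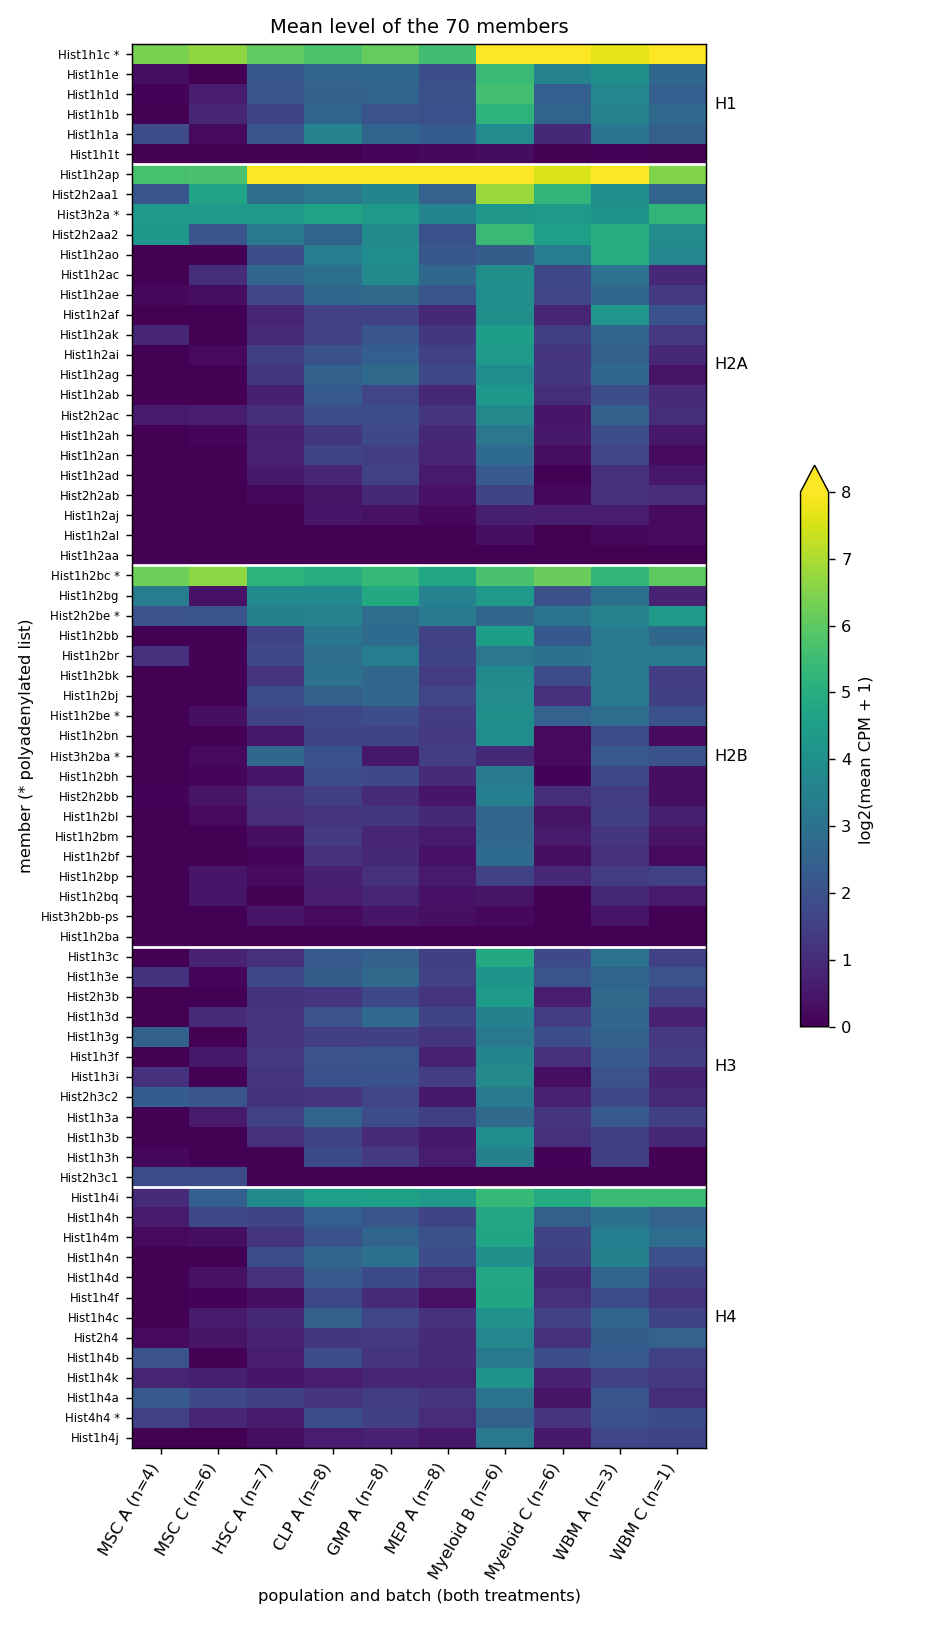
Mean level of each of the 70 members (rows, by family, with * for the list with described polyadenylated transcripts) in the 10 combinations of population and batch (columns). Colour is log2(mean CPM + 1), capped at 8, and is read along a row since genes differ in length; Hist1h2ap is high in all columns but MSC, Myeloid batch C and WBM batch C, and Hist1h1c is highest in Myeloid cells.

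Hist1h2ap was low in stroma and high in most haematopoietic libraries. It had 92.7, 12.8, 75.6 and 77.3 CPM in the aPAPPA MSC pools 8, 16, 18 and 20, and 14.5 to 74.8 CPM (median 37.9) in the 6 control MSC pools. In HSC it had 869, 754, 291 and 601 CPM with aPAPPA and 410, 278 and 706 CPM with the control antibody. In GMP it had 1485, 764, 1035 and 1060 CPM with aPAPPA and 959, 752, 1615 and 979 CPM with control. The treatments overlapped in each of these populations, and every MSC library was below every HSC library. CLP libraries ranged from 562 to 1281 CPM with aPAPPA and from 665 to 926 with control, and MEP libraries from 443 to 654 with aPAPPA and from 480 to 788 with control. Hist1h2ao, its near copy, was at 0 in all 10 MSC libraries.

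The Myeloid and WBM libraries split by batch. Hist1h2ap had 2138, 3403 and 1292 CPM (aPAPPA) and 1682, 2603 and 1913 CPM (control) in Myeloid batch B. In Myeloid batch C it had 65.7, 134 and 244 CPM (aPAPPA) and 91.9, 143 and 436 CPM (control). All batch B libraries stood above all batch C libraries, whichever antibody was given. WBM showed the same order, with 1709, 997 and 1432 CPM in the 3 batch A pools, and 88.5 CPM in batch C pool 15. Hist1h2ap made up 45.7 to 79.4% of the members' CPM in Myeloid batch B and 5.1 to 30.3% in batch C, and 4.42 to 27.4% in MSC.

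Hist1h1c, which encodes the H1.2 linker histone, had another distribution. In Myeloid batch B it had 735, 239 and 398 CPM (aPAPPA) and 955, 326 and 561 CPM (control); in batch C it had 916, 1256 and 694 CPM (aPAPPA) and 1053, 1111 and 740 CPM (control). The batches overlapped, with the higher values in batch C. WBM had 201, 238 and 199 CPM of Hist1h1c in the batch A pools, and 603 CPM in batch C pool 15. MSC, where Hist1h2ap was low, had 74.6, 88.1, 102 and 81.5 CPM with aPAPPA and 49.7 to 122 CPM (median 110) with control. MEP libraries were lower than most of these, with 33.7, 53.4, 34 and 40.2 CPM with aPAPPA and 39.1, 51.1, 56.1 and 62.3 CPM with control.

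Hist1h2bc, an H2B gene on the polyadenylated list, had 52.0 CPM or more in every MSC library. It had 105, 52.0, 84.4 and 119 CPM in aPAPPA MSC, 58.5 to 133 CPM (median 82.3) in control MSC and 24.7, 25.8 and 50.2 CPM in control HSC. In Myeloid batch B it had 58.5, 25.1 and 36.8 CPM (aPAPPA) and 87.6, 58.4 and 43.5 CPM (control), against 56.1, 75.9 and 53.5 CPM (aPAPPA) and 69.1, 101 and 69.3 CPM (control) in batch C. Those batches overlapped. The list as a whole made up 51.1 to 81.4% of the members' CPM in MSC, 58.2 to 82.9% in Myeloid batch C and 73.5% in WBM batch C. It made up 6.63 to 25.1% in HSC, CLP, GMP and MEP, 6.89 to 34.8% in Myeloid batch B and 11.8 to 17.7% in WBM batch A.

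Hist1h4i, the highest H4 gene per kilobase, overlapped between batches. It had 30.1 to 54.9 CPM in Myeloid batch B and 21.3 to 36.8 in batch C, and 40.4, 49.3 and 40.6 CPM in WBM batch A, against 43.2 in batch C. In MSC it had 9.82 CPM in aPAPPA pool 16 and 0.84 to 2.02 CPM in the other 3 aPAPPA pools.

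The first comparison set Myeloid batch B against batch C, with treatment as a term. Most members were higher in batch B: of 62 tested, 46 were called higher and 1 lower by edgeR's quasi-likelihood test with Benjamini-Hochberg adjustment at 0.05, where 18% of all genes were called higher and 11.2% lower. The median difference over the members tested was 3.42 on the log2 scale, and over all genes 0.19. By family, the members higher were 4 of 5 H1, 14 of 17 H2A, 9 of 16 H2B, 10 of 11 H3 and 9 of 13 H4 genes tested. Of the other members, 45 of 55 tested were higher and none lower at that threshold, with a median of 3.56. On the polyadenylated list, which was chosen with earlier results of these data known, 1 of 7 was higher and 1 lower, with a median of −0.15. A member that passed the low-count filter only through batch B had to be higher there, and 8 members were not tested. The counts, family tallies and medians given here include such members, so part of them was fixed by the filter. Hist1h2ad, at 0 in all of batch C, is one, and how many others there were was not counted.

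Of the members counted in both batches, Hist1h2ap was higher in batch B by 3.51 ± 0.46 (log2, SE; adjusted p = 1.4e-04, edgeR's quasi-likelihood test with Benjamini-Hochberg adjustment). Hist2h2aa1 had 151, 75.4 and 84.4 CPM (aPAPPA) and 88.1, 173 and 90.0 CPM (control) in batch B, against 29.2 to 54.1 CPM in batch C, a difference of 1.52 ± 0.26 (edgeR, adjusted p = 6.70e-04). Other members had almost no counts in batch C, so they passed the low-count filter through batch B alone and had to be higher there; their values are given as a description. The H3 gene Hist1h3h had 23.5, 6.67 and 4.69 CPM (aPAPPA) and 0.677, 20.3 and 6.75 CPM (control) in batch B, against 0 in 5 batch C libraries and 0.375 CPM in control pool 17. The H2B gene Hist1h2bh had 0.815 to 18.8 CPM in batch B, against 0 in 5 batch C libraries and 0.375 CPM in control pool 17. The H2A gene Hist1h2ad had 1.40 to 7.09 CPM in batch B and 0 in all 6 batch C libraries. The batches did not overlap for these 3 genes.

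Most of the next members by level were also higher in batch B. The H4 gene Hist1h4m had 40.3, 19.9 and 14.7 CPM (aPAPPA) and 7.80, 54.5 and 17.8 CPM (control) in batch B, against 6.03, 0.403 and 0 CPM (aPAPPA) and 0, 5.40 and 0.747 CPM (control) in batch C. Its batches did not overlap, and its difference was 3.62 ± 1.08 (edgeR, adjusted p = 0.0250). Hist1h4n was higher by 2.99 ± 1.02 and the H2B gene Hist1h2bg by 2.65 ± 0.60. The H3 gene Hist1h3c was higher by 3.56 ± 0.98. The H3 genes Hist1h3i and Hist2h3b, with fitted differences of 6.12 ± 1.24 and 5.18 ± 1.12, were at 0 in 5 and 3 of the 6 batch C libraries and also passed the filter through batch B. Hist1h2bb (2.52 ± 1.06), Hist2h2aa2 (0.92 ± 0.75) and Hist1h2ao (−1.02 ± 1.23) did not pass; the last 2 share nearly all their sequence with another member.

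The linker histones divided. Hist1h1b, Hist1h1a, Hist1h1d and Hist1h1e were higher in batch B by 2.78 ± 0.59, 4.11 ± 1.11, 3.51 ± 0.67 and 1.87 ± 0.44 (log2, SE). Hist1h1c was the single member called lower, by −0.94 ± 0.29 (adjusted p = 0.0237, edgeR's quasi-likelihood test with Benjamini-Hochberg adjustment), a call lost without Myeloid aPAPPA pool 18. Of the rest of the polyadenylated list, Hist1h2be was called higher (1.59 ± 0.49; edgeR, adjusted p = 0.0236). Hist1h2bc (−0.55 ± 0.23; edgeR, adjusted p = 0.0877), Hist2h2be (−0.50 ± 0.42), Hist3h2a (−0.15 ± 0.31), Hist4h4 (1.70 ± 1.18) and Hist3h2ba (3.10 ± 1.22; edgeR, adjusted p = 0.0687) did not pass. Nor did Hist1h4i, at 0.44 ± 0.22 (edgeR, adjusted p = 0.159).

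**Figure D2:**
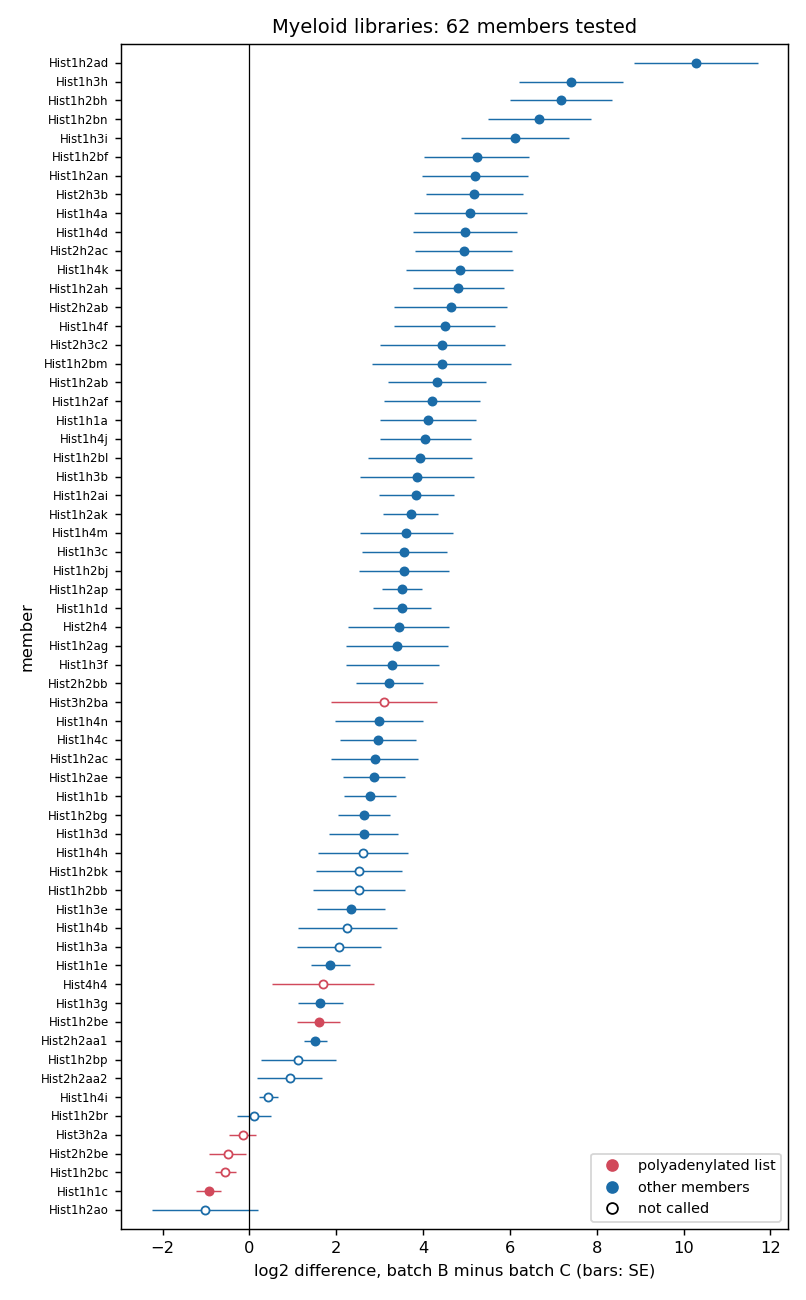
Log2 difference, Myeloid batch B minus batch C, of the 62 members tested (points, with SE bars), with filled points for called members and red for the polyadenylated list. Of the members 57 lie above 0; those on the polyadenylated list run from −0.94 (Hist1h1c) to 3.10 (Hist3h2ba), with 3 of 7 above 0.

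The split by stem-loop position gave a similar share called higher in each class. Members whose model ends within 100 bases of the stem-loop were higher in 15 of 22 tested, those running on in 15 of 20 (1 lower, Hist1h1c) and those without a match in 16 of 20. In summed level, the first class had 1538 to 3639 CPM in batch B and 171 to 527 in batch C. The members running on, dominated by Hist1h1c, had 478 to 1304 CPM in batch B and 811 to 1360 in batch C. Summed over the 63 other members the level was 1826 to 4428 CPM (median 3216) in Myeloid batch B and 235 to 602 CPM (median 328) in batch C. Without Hist1h2ap it was 329 to 1825 CPM in batch B and 143 to 211 (median 187) in batch C. The ranges did not overlap with or without that gene. The polyadenylated list had 296 to 1071 CPM (median 553) in batch B and 791 to 1371 CPM (median 1077) in batch C.

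Of the other members, 18 had every batch B library above every batch C library, and 45 overlapped, as did all 7 of the polyadenylated list. The share of all genes with such a split is not given, so the 18 are a description only. Among the 18, Hist1h2ad, Hist1h3h, Hist1h2bh, Hist1h3i and Hist1h2bn were at or near 0 in batch C, which left little room for overlap. Others, among them Hist2h3b, Hist2h2ac, Hist1h4d, Hist1h2bj and Hist1h4m, were at 0 in part of the batch C libraries, with the same limit. Myeloid pools 10 (aPAPPA) and 11 (control) stood highest: without Hist1h2ap their other members summed to 1687 and 1825 CPM, against 329 to 694 CPM in the other 4 batch B libraries. Without pool 10, 30 members were called higher and 2 lower, without control pool 9, 42 and 2, and without pools 10 and 11, 15 of 52 tested, all 15 among the 46, with a median of 1.89. There Hist1h2ap kept its call (3.34; edgeR, adjusted p = 7.58e-04). Hist1h1c was then lower by −1.12 (edgeR, adjusted p = 0.0104) and Hist1h2bc by −0.81 (edgeR, adjusted p = 0.0237). The share of all genes called in the fits that leave out pools is not given, so their counts of members are descriptions only.

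**Figure D3:**
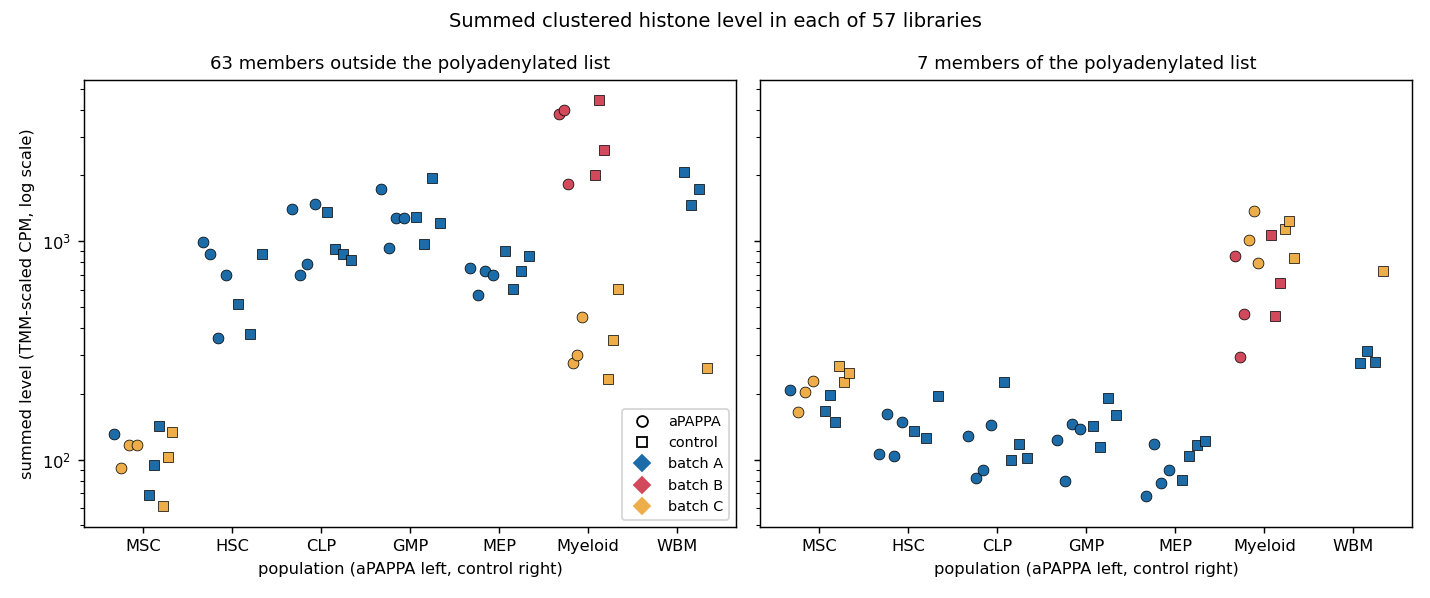
Summed CPM per library (log axis) of the 63 other members (left panel) and of the 7 on the polyadenylated list (right panel), by population, with aPAPPA as circles on the left and control as squares on the right, coloured by batch. In the left panel the Myeloid batch B libraries (1826 to 4428 CPM) stand clear of batch C (235 to 602 CPM), and in the right panel they do not.

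Other measures moved with the batches. RNAs known to lack a poly(A) tail (24 genes) summed to 145 to 12280 CPM in Myeloid batch B, with pools 10 and 11 highest (12280 and 9118), and to 59.8 to 506 in batch C; 8 of 12 tested were higher in batch B and 0 lower (median 3.48). Their part in the histone difference was not tested. GMP markers summed to 5619 to 16750 CPM in batch B and 1169 to 3084 in batch C, and their part was not tested either. The 2 batches B and C also differ in depth, without overlap. Among cell cycle genes, Top2a, a topoisomerase of dividing cells, had 402, 677 and 561 CPM (aPAPPA) and 505, 512 and 652 CPM (control) in batch B, against 168 to 275 CPM in batch C (1.13 ± 0.17; edgeR, adjusted p = 2.71e-04). Mki67, a proliferation marker, had 553 to 923 CPM in batch B and 672 to 905 in batch C (−0.24 ± 0.15; not called).

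Genes that act on histone mRNA or take the place of clustered histones did not share the members' size of difference. Of the genes of histone mRNA processing 5 of 16 tested were higher and 2 lower in batch B, of the histone chaperones 6 of 16 and 1, and of the replication-independent histone variants 2 of 11 and 1. Slbp was lower in batch B by −0.54 ± 0.18 (edgeR, adjusted p = 0.0301), with 157 to 269 CPM there and 255 to 289 CPM in batch C. Npat (1.09 ± 0.55) was not called. H3f3b, which encodes the replication-independent H3.3, had 1403 to 2750 CPM in batch B and 3142 to 5707 in batch C (−1.28 ± 0.21; edgeR, adjusted p = 5.04e-04). H2afx was higher (0.79 ± 0.20; edgeR, adjusted p = 8.29e-03), and H2afz (−0.31 ± 0.19) and H1f0 (−0.30 ± 0.19) did not pass.

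WBM and MSC offered the other batch contrasts. In WBM the other members summed to 1465 to 2072 CPM (median 1742) in the batch A pools, against 263 CPM in the single batch C library, and the polyadenylated list to 276 to 314 CPM in batch A, against 731 in batch C. With 1 library this has no replicate check, and erythroid markers summed to 14040 to 20150 CPM in batch A, against 209400 in batch C, and their part in the difference was not tested. In MSC batches A and C overlapped: the other members summed to 69.1 to 143 CPM in batch A and 61.0 to 133 in batch C, and the polyadenylated list to 149 to 208 and 165 to 268. No member of 14 tested was called between MSC batch A and batch C by edgeR's quasi-likelihood test with Benjamini-Hochberg adjustment (1.11% of all genes were higher and 3.41% lower), with a median of −0.22 and 2 at an unadjusted p under 0.05, Hist1h2bg and Hist2h2aa1. DESeq2 called 1 higher, Hist1h2bg, and without MSC control pool 3 the edgeR test called 1 lower, Hist2h2aa1.

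Cycling state was read from lists of 41 S-phase and replication genes and 30 G2 and mitosis genes. The S-phase list summed to 545 to 1097 CPM in MSC, 2856 to 4815 in HSC, 3659 to 5906 in CLP, 5066 to 6760 in GMP and 6034 to 7823 in MEP. It was 2977 to 4330 CPM in Myeloid batch B and 2131 to 2848 in batch C, and 5296 to 6832 in WBM batch A and 4741 in batch C. The other members did not follow this order within batch A: MEP had the highest median S-phase sum of the sorted populations (6801 CPM) but 569 to 901 CPM of the other members, below all GMP libraries (933 to 1956 CPM), while HSC had 362 to 988 and CLP 699 to 1478.

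Set as CPM of the other members for each 100 CPM of the S-phase list, the levels were 9.92 to 20.4 in MSC, 9.93 to 24.6 in HSC, 13.4 to 38.2 in CLP, 17.6 to 31.8 in GMP and 8.99 to 12.7 in MEP. MSC, with little of either, thus lay in the range of HSC and MEP. The value was 55.6 to 132 (median 86.0) in Myeloid batch B and 9.27 to 22.7 (median 12.7) in batch C. It was 25.5 to 34.3 in WBM batch A and 5.54 in batch C. Against the G2 and mitosis list it was 42.4 to 102 in Myeloid batch B and 6.61 to 16.3 in batch C. The Myeloid batches did not overlap on either ratio, and 15 of 41 S-phase genes were higher and 5 lower in batch B and 16 of 30 mitotic genes were higher and 0 lower, with medians of 0.52 and 0.53. Mcm5, a subunit of the replicative helicase, was among those higher (0.76 ± 0.18; edgeR, adjusted p = 5.84e-03), Ccne2, cyclin E2, among those lower (−0.71 ± 0.21; edgeR, adjusted p = 0.0189), and Pcna, the polymerase clamp, did not pass (−0.14 ± 0.17).

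**Figure D4:**
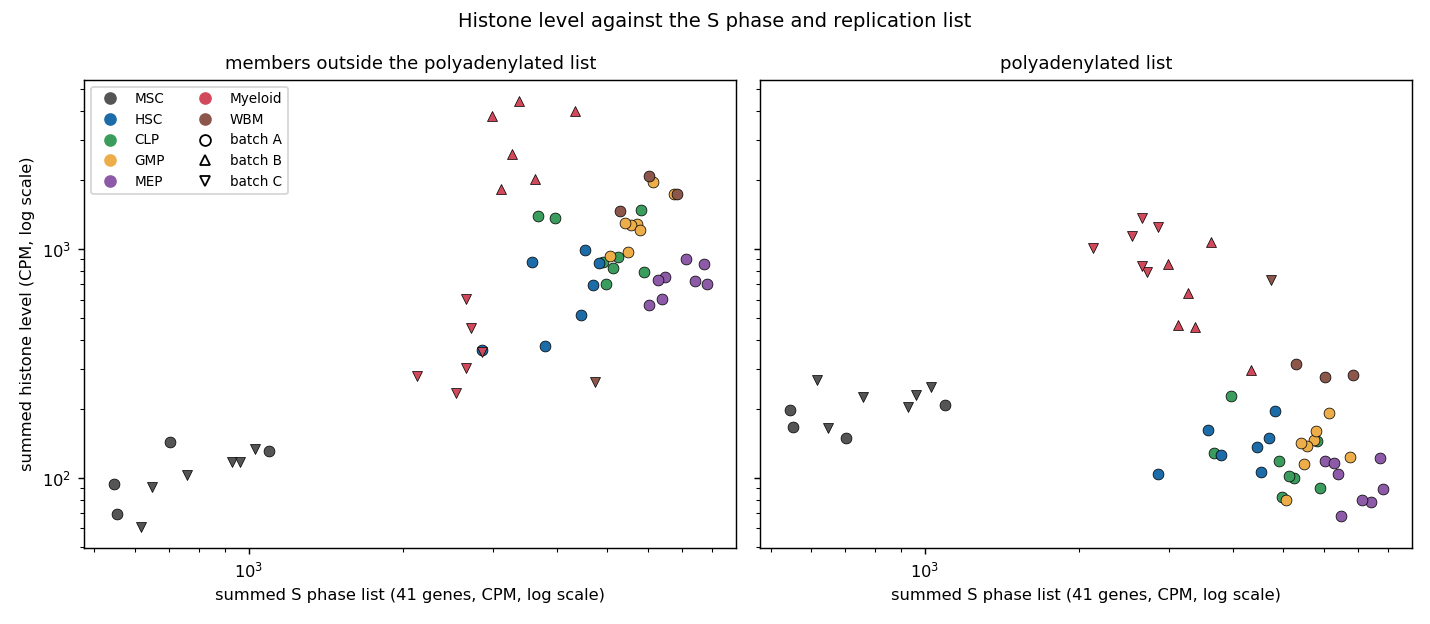
Summed CPM of the 63 other members (y, log axis) against summed CPM of 41 S-phase genes (x, log axis) for the 57 libraries, coloured by population, with circles for batch A, upward triangles for B and downward triangles for C. Myeloid batch B lies well above the haematopoietic libraries of equal S-phase level, and MSC lies at the low end of both axes.

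The control populations were compared in 1 fit of 31 control libraries with a term for batch, and again within 1 batch. Between MEP and HSC no member of 65 tested was called (5.4% of all genes higher and 8.56% lower; median 0.10 on the log2 scale over the members), with 4 members at an unadjusted p under 0.05 and 1 called lower by DESeq2, while 12 of 41 S-phase genes were higher and 0 lower in MEP. With batch A libraries only, 2 members were higher (12.4% of all genes), Hist1h4i by 0.93 (edgeR, adjusted p = 0.0142) and Hist1h3h, and 2 lower (14.9%), Hist3h2ba and Hist3h2a.

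GMP set against HSC gave 3 members higher of 65 (6.77% of all genes) and 1 lower (10.1%). Higher were Hist1h2ao (2.23 ± 0.65), Hist1h3h (1.10, 1.25, 1.70 and 4.54 CPM in GMP against 0, 0.255 and 0 CPM in HSC; 3 counts in all there) and Hist1h4i (18.7, 19.0, 19.6 and 31.2 CPM in GMP against 7.48, 10.5 and 14.2 CPM in HSC; 1.08 ± 0.37). Their adjusted p were 0.0174, 0.0221 and 0.0430 in edgeR's quasi-likelihood test with Benjamini-Hochberg adjustment. Lower was Hist3h2ba, at 0, 0.809, 0.467 and 0.455 CPM in GMP and 5.86, 6.55 and 9.25 CPM in HSC (−3.96 ± 1.01; edgeR, adjusted p = 4.85e-03). The groups did not overlap for Hist1h3h, Hist1h4i and Hist3h2ba. Hist1h3h entered the fits through populations other than HSC, so in any comparison it had little room to be lower than in HSC. With batch A libraries only, 25 members were higher (14.3%) and 2 lower (16%), and Hist1h2ap, at 1.25 ± 0.61 (edgeR, adjusted p = 0.189) over all batches, was then called higher (1.29; edgeR, adjusted p = 1.75e-03). With the mouse pool as a replicate block, 7 members were higher and 1 lower. For that fit and those that leave out a library, the share of all genes called is not given. The count of 3 was 1 without GMP control pool 1 or 5 or HSC control pool 3, 5 without CLP control pool 1 or WBM control pool 15, 6 without MSC control pool 3 or 17, and 7 without MSC control pool 15 or 19 or Myeloid control pool 15. The call of Hist1h2ao was lost without HSC control pool 3 or GMP control pool 5, and that of Hist1h3h without GMP control pool 1 or HSC control pool 3 or 7. Hist1h4i kept its call in fewer settings: it was lost under RLE scaling, with no filter and without any of 15 single libraries, among them each GMP and MEP pool but GMP pool 3.

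CLP set against HSC gave 1 member higher (5.7% of all genes) and 0 lower (7.63%): Hist1h3h, at 9.84, 1.07, 0 and 1.32 CPM in CLP and 0, 0.255 and 0 CPM in HSC (edgeR, adjusted p = 0.0166), a call lost without CLP control pool 1 or HSC control pool 3 or 7. The groups overlapped at 0, and with 3 counts in all control HSC this gene had little room to be lower in CLP. The count was 3 with the mouse pool as a replicate block (share of all genes not given there or without a library). It was 2 without MSC control pool 5, 7 or 19, WBM control pool 15 or Myeloid control pool 17, 3 without Myeloid control pool 11, 4 without Myeloid control pool 19 and 6 without Myeloid control pool 15. With batch A libraries only, 17 were higher (14.1%) and 0 lower (13.2%).

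More members were lower than higher in MSC. MSC set against HSC gave 2 members higher of 65 tested (17.8% of all genes) and 23 lower (15.4%), with a median of −2.45 (−2.24 with members at 0 in one group placed at their bound). At least 18 of the 65 were at 0 in MSC or, for Hist2h3c1, in HSC. Their direction was fixed, and the count called and the median include them. Hist1h2bc was higher by 0.96 ± 0.32 (edgeR, adjusted p = 0.0214), a call lost without HSC control pool 3 or 5, MSC control pool 3, 7 or 17 or WBM control pool 15. The other call higher was Hist2h3c1, which was counted in MSC alone and entered the fits only through it, so its direction was fixed in every comparison with MSC. It has no word of its own, and its counts rest on how Salmon divided shared reads. Lower were Hist2h2be, at 0 to 4.19 CPM in MSC and 13.1, 9.61 and 15.9 in HSC (−2.98 ± 0.52; edgeR, adjusted p = 3.47e-05), Hist1h4i (−2.41 ± 0.49; edgeR, adjusted p = 2.5e-04) and Hist1h2ap (−3.12 ± 0.79; edgeR, adjusted p = 2.90e-03). Hist1h2ao (at least 61.2-fold lower) and Hist1h4n (at least 52.9-fold lower) were at 0 in all control MSC libraries and passed the filter through other populations, so they could not be higher in MSC. With batch A libraries only, 0 were higher (20.1%) and 32 lower (27.8%), 21 of them among the 23, with a median of −5.17. With the mouse pool as a replicate block, 2 were higher and 30 lower (share of all genes not given), 22 of them among the 23, with a median of −3.70. All 30 mitotic genes and 38 of 41 S-phase genes were lower in MSC as well.

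Set against MSC, Myeloid cells gave 35 members higher of 65 tested (21.3% of all genes) and 1 lower (30.6%), with a median of 2.93 (3.34 with bounds). At least 19 of the 65 were at 0 in MSC or, for Hist2h3c1, in Myeloid cells. Their direction was fixed, and the count called and the median include them. Hist1h1c was higher by 2.79 ± 0.36 (edgeR, adjusted p = 1.03e-07) and Hist1h4i by 2.90 ± 0.38 (edgeR, adjusted p = 1.68e-07). Hist1h1e had 4 counts in all control MSC and was called higher, and Hist1h2ao, at 0 in MSC, was at least 72.5-fold higher. Hist1h2ap was higher by 2.54 ± 0.61 (edgeR, adjusted p = 9.77e-04). The call lower was Hist2h3c1, counted in MSC alone, and DESeq2 did not make it; without Myeloid control pool 17, 2 members were lower. With batch C libraries only, 11 members were higher (16.5% of all genes), all among the 35, and 1 lower (18.6%), so most of the 35 were not called within that batch. The number of members tested there is not given, so the 11 cannot be set against the 16.5%. Hist1h1c and Hist1h4i kept their calls there, and Hist1h2ap did not (2.34, edgeR, adjusted p = 0.0637).

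Set against unsorted marrow, with batch as a term, MSC gave 2 members higher of 53 tested (23.1% of all genes) and 32 lower (26.1%), with a median of −4.13. At least 12 of the 53 were at 0 in MSC or, for Hist2h3c1, in WBM, so their direction was fixed. Higher were Hist2h3c1, counted in MSC alone, and Hist1h2bc (0.63 ± 0.22; edgeR, adjusted p = 0.0261); the call of Hist1h2bc was lost without WBM control pool 1, 5 or 15 and with the mouse pool as a replicate block, which gave 1 member higher and 30 lower, 26 of these 30 among the 32, with a median of −6.36. Hist1h1c (−1.81 ± 0.27; edgeR, adjusted p = 6.30e-05), Hist1h4i (−4.47 ± 0.56; edgeR, adjusted p = 1.62e-05) and Hist1h2ap (−4.56 ± 0.94; edgeR, adjusted p = 1.62e-03) were lower, and Hist1h2ao, at 0 in MSC, at least 491-fold. Hist1h1b had 1 count in all control MSC, against 5.59 to 15.5 CPM in WBM, and Hist1h1e 4 counts, against 5.51 to 20.0 CPM. The share of all genes called with the replicate block is not given.

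Without the libraries under 1000000 counts, which include MSC control pool 7, the counts moved by at most 1 member. MSC set against HSC then gave 2 higher and 23 lower, Myeloid cells set against MSC 36 higher and 1 lower, and MSC set against WBM 2 higher and 31 lower. GMP set against HSC gave 4 higher and 1 lower, and CLP set against HSC 1 higher.

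The last question was whether the antibody against PAPP-A moved the members. None was called in any population by edgeR's quasi-likelihood test with Benjamini-Hochberg adjustment: 0 of 14 tested in MSC (0.0313% of all genes called), 0 of 39 tested in HSC (0.0069%), 0 of 38 tested in CLP (0%), 0 of 62 tested in GMP (0%), 0 of 43 tested in MEP (0%) and 0 of 62 tested in Myeloid cells (0%). At an unadjusted p under 0.05 there were 0, 1, 2, 5, 1 and 1 members in that order of populations, and 0, 0, 2, 9, 1 and 1 in DESeq2, which also called none. Nor was any member called without the libraries under 1000000 counts. The test of a treatment difference between populations called 0 of 64 members (0.0511% of all genes), with 8 at an unadjusted p under 0.05 and 8 in DESeq2.

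Summed over all members, CLP had 1203 ± 433 CPM with aPAPPA and 1133 ± 307 with control (SD, n = 4 each), GMP 1427 ± 347 and 1511 ± 452 (n = 4 each) and HSC 861 ± 284 (n = 4) and 739 ± 291 (n = 3). MEP had 776 ± 60.2 with aPAPPA and 879 ± 130 with control (n = 4 each). MSC had 315 ± 40.9 (n = 4) and 309.7 ± 49.1 (n = 6), and Myeloid cells 2577 ± 1529 and 2604 ± 1393 over both batches (n = 6 each). Within Myeloid batch B the other members summed to 3825, 3992 and 1826 CPM with aPAPPA and 2011, 4428 and 2607 CPM with control, and within batch C to 277, 301 and 451 CPM with aPAPPA and 235, 354 and 602 CPM with control, overlapping in both. In each population the difference was smaller than the larger SD.

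The median difference over the members tested, aPAPPA minus control, was 0.33 in MSC and −0.06 in HSC libraries, −0.43 in both CLP and GMP, −0.21 in MEP and −0.01 in Myeloid cells. Positive were 8 of 14 in MSC, 17 of 39 in HSC, 9 of 38 in CLP, 7 of 62 in GMP, 11 of 43 in MEP and 30 of 62 in Myeloid cells. The median of all genes was 0.02 in both CLP and GMP. RNAs without a poly(A) tail had medians of −0.98 (0 of 9 positive) in GMP and −2.0 (0 of 5) in CLP, with control pool 1 highest in both (750.1 CPM summed in GMP and 1973 in CLP), and their part was not tested. The S-phase list had a median of 0.02 in GMP. Hist1h2ap, the member with the highest level, differed by 0.01 ± 0.24 in GMP and 0.20 ± 0.35 in CLP. CLP control pool 1 also stood highest for all members summed (1589 CPM, other control pools 924 to 1024). Near copies share reads, so the members are not independent of each other.

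The members with the smallest p were these. In HSC, Hist1h4i had 23.4, 18.9, 5.48 and 12.6 CPM with aPAPPA and 10.5, 7.48 and 14.2 CPM with control (0.81 ± 0.34; edgeR, adjusted p = 0.618). In GMP, Hist3h2a had 16.8, 13.7, 16.5 and 15.6 CPM with aPAPPA and 15.4, 18.8, 29.8 and 21.0 CPM with control (−0.43 ± 0.17; edgeR, unadjusted p = 0.0313). In CLP, Hist2h2ac had 1.21, 1.22, 2.15 and 1.48 CPM with aPAPPA and 7.18, 3.21, 3.66 and 1.32 CPM with control (−1.50 ± 0.60; edgeR, unadjusted p = 0.0340). The treatments overlapped in all 3.

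In MEP, Hist1h1a had 1.90, 3.90, 3.60 and 2.76 CPM with aPAPPA and 4.74, 5.65, 5.68 and 3.71 CPM with control (−0.66; edgeR, unadjusted p = 0.0482), also overlapping. In Myeloid cells Hist1h2bc had the smallest p (−0.50 ± 0.23; edgeR, unadjusted p = 0.0490), and in MSC Hist2h3c1 (edgeR, unadjusted p = 0.123). In MEP the aPAPPA pools lay wholly below the control pools for 3 of 43 members tested, Hist1h3a, Hist1h2bj and Hist1h2bb. Hist1h2bj had 2.39, 1.596, 1.08 and 1.87 CPM with aPAPPA and 2.93, 2.73, 2.60 and 2.52 CPM with control (−0.57, edgeR, unadjusted p = 0.0647). In HSC the aPAPPA pools lay wholly below for 2 of 39 tested, Hist3h2ba and Hist1h2ae, each at 0 in the shallow aPAPPA pool 6. These 5 were picked out after their values were seen, and the share of all genes with such a split is not given. The smallest p of the test between populations were those of Hist1h2ae, Hist1h1b and Hist1h2be (edgeR, adjusted p = 0.314, 0.448 and 0.514).

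**Figure D5:**
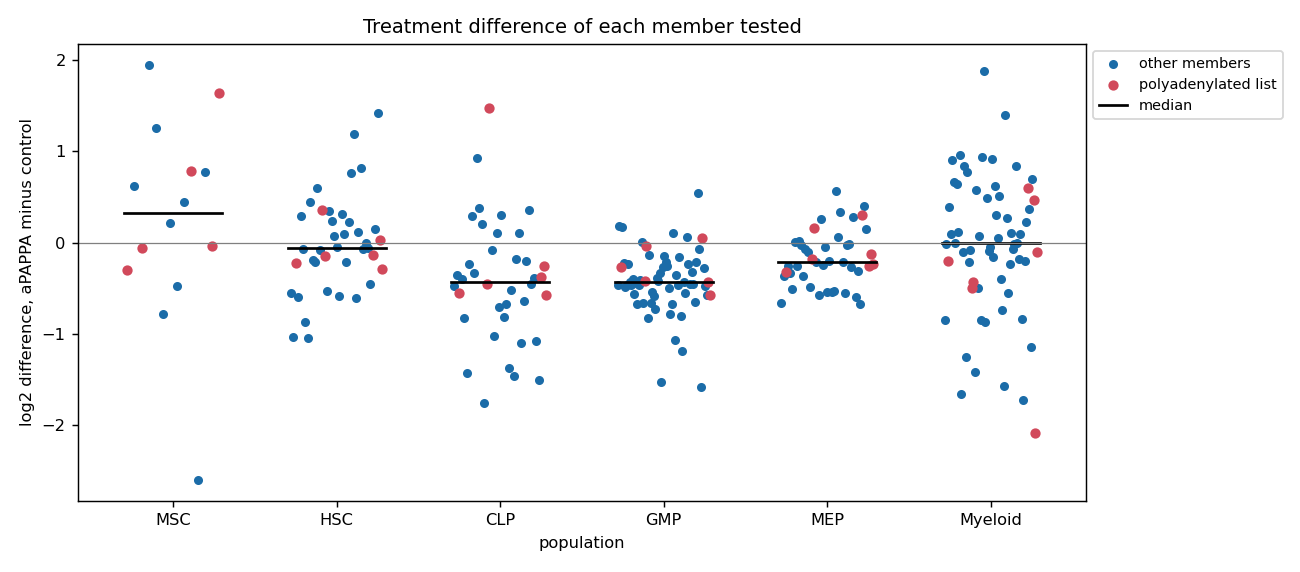
Log2 difference, aPAPPA minus control, of each member tested in the 6 sorted populations (1 point a member, red for the polyadenylated list), with the median as a black line. The medians lie between −0.43 and 0.33 and no member was called.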

How the data were processed

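Per the submitters' processing notes, reads were checked with FastQC 0.11.5 and quantified with Salmon on mm10. Neither Salmon's version nor its annotation release is given in the sources used here. The expected counts per gene and library were made by the authors with Salmon, per the submitters' processing notes, and were deposited as whole numbers without scaling. The table had 7385832 lines; repeated lines of a gene and sample never differed, and 1 was kept, leaving 56332 genes. The members and lists were chosen with earlier results of these data known.

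Models came from GENCODE M21 (GRCm38; 68 members matched by Ensembl ID and 2 by symbol) and promoters from RefSeq GRCm38.p6. Each comparison was fitted over all genes with edgeR 4.0.16 in R 4.3.3 (filterByExpr, TMM scaling, robust quasi-likelihood test, Benjamini-Hochberg at 0.05), within a population with batch as a term, over 31 control libraries, or over 53 libraries for the interaction. The fit was checked on simulated data. Where the labels give the same pool number, libraries of different populations come from the same mice: the correlation of their deviations over 13943 genes had a median of 0.0744 in 49 pairs of the same pool (−0.467 to 0.476) and −0.0273 in 143 pairs of different pools. A fit with the pool as a replicate block was an alternative. Fold bounds use a floor of 3 counts over a group and cover counting error only.

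Other alternatives were RLE size factors, no filter, DESeq2 1.42.0, leaving out each library, leaving out libraries under 1000000 counts, 1 batch only and, chosen after seeing the data, leaving out Myeloid pools 10 and 11. Named members were the polyadenylated list, the 3 highest per kb in each family, and in each comparison the 4 higher and 4 lower with the smallest p, or the 3 smallest p where none was called.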

Additional observations from a re-analysis of the deposited data

Results flagged for a closer look

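The 12 groups of 4 or 6 libraries gave 156 combinations of a group and a measure, each tested with Dixon's rule, and in 18 of them 1 library stood far from the rest; chance flags about 1 in 20. CLP control pool 1 stood above the other 3 control pools for all members (1589 CPM summed, others 924 to 1024), the polyadenylated list (226.8, others 100.0 to 118), family H1 (170.2, others 54.7 to 73.2) and family H3 (92.8, others 15.1 to 24.4). Myeloid aPAPPA pool 10 stood above the other 5 aPAPPA pools for family H2B (346.6 CPM, others 93.8 to 131), H3 (312.6, others 7.66 to 95.6) and H4 (411.7, others 31.6 to 129). Myeloid control pool 11 did so for H2B (318.6, others 92.5 to 158) and H4 (504, others 32.9 to 165). Both belong to batch B.

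The batch C library of WBM, control pool 15, stood above the 3 batch A libraries for the polyadenylated list (730.6 CPM, others 276 to 314), family H1 (622.3, others 236 to 299), Hist1h1c (602.6, others 199 to 238) and Hist3h2a (36.3, others 15.5 to 16.7). Hist1h4i stood apart in MSC aPAPPA pool 16 (9.821 CPM, others 0.84 to 2.02), GMP control pool 5 (31.16, others 18.7 to 19.6) and MEP control pool 7 (21.21, others 18.5 to 18.9). Hist1h2bc was low in GMP aPAPPA pool 4 (17.58 CPM, others 37.2 to 40.9) and Hist3h2a high in MEP aPAPPA pool 4 (13.92, others 8.38 to 8.77).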

How the results depend on the processing

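Under the alternatives, 481 counts of called members stayed within 1.5 times the main count, counts that stayed at 0 included, and 61 did not. Of the log2 differences of named members, 1083 kept their status, 41 lost a call and 7 gained one, and none changed sign. Members higher in Myeloid batch B numbered 46; leaving out a library gave 30 to 45 and leaving out pools 10 and 11 gave 15. Those lower numbered 1, with 2 in DESeq2, 2 without pools 10 and 11, and 0 to 2 without a library. In MSC, batch A minus C gave 1 higher in DESeq2, 1 lower with no filter, and 0 to 1 lower without a library. GMP set against HSC gave 3 higher, with 8 in DESeq2, 25 in batch A, 1 to 7 without a library and 7 with the pool as a replicate block; it gave 1 lower, with 2 in DESeq2, 2 in batch A and 1 to 2 without a library. CLP set against HSC gave 1 higher, with 2 under RLE, 11 in DESeq2, 17 in batch A, 0 to 6 without a library and 3 with the replicate block. MEP set against HSC gave 2 higher and 2 lower in batch A and 1 lower in DESeq2. MSC set against HSC gave 2 higher, with 1 with no filter, 1 in DESeq2, 0 in batch A and 1 to 2 without a library; lower were 23, and 30 with the replicate block. Myeloid set against MSC gave 11 higher in batch C, 0 lower in DESeq2 and 1 to 2 lower without a library. MSC set against WBM gave 2 higher, with 1 with no filter, 1 to 2 without a library and 1 with the replicate block. The causes were not tested. The share of all genes called is given for the main fits and the fits within 1 batch alone. For the other alternatives the counts of members are descriptions. The number of members tested within 1 batch is not given. The paired fit changed no other count of calls by over 1.5 times. Scaled on the total count, summed levels were 1171 CPM (all members) and 180.2 CPM (polyadenylated list) in aPAPPA HSC, 190.1 CPM (polyadenylated list) in control HSC, and 908.3 and 804.2 CPM (all and other members) in aPAPPA MEP. No treatment alternative called a member. Leaving out libraries for the interaction was not run.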
